A study of Drosophila melanogaster with 23 samples.

Results

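The transcripts described here were mad2 (FBtr0077113), Mps1 (FBtr0083478) and Klp3A (FBtr0070448), 3 of the 21051 transcripts on the array. They were chosen by identifier, with earlier results of these data known. Mad2 is a spindle checkpoint protein that binds the activator of the anaphase-promoting complex (APC/C) and holds it inactive. Mps1 is the kinase that recruits checkpoint proteins to kinetochores without microtubules attached. Klp3A is a chromokinesin of the kinesin-4 family, a motor of the central spindle. Their RNA levels came from wing imaginal discs, the larval epithelia that give rise to the adult wing and thorax, from male larvae of the third instar grown at 25 °C on malt-based medium. Larvae hemizygous for Myb MH107, an allele that arose from P-element mobilization, were set against the control stock yw67. Per the study's methods, the allele is a small deletion that removes the start of Myb and the neighbouring gene AlkB, the chromosome was crossed into a yellow white background before use, mutant males were picked from a balanced stock by the absence of GFP. The labels give early pupal lethality as the mutant phenotype. Both genotypes carry a white mutation. There were 3 biological replicates of each genotype, measured on 12 mutant and 11 control arrays, with 4 arrays per biological replicate and, by the sample titles, 3 for control replicate 3.

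Cells arrest before anaphase while any chromosome lacks attachment to the spindle. At such kinetochores Mps1 activity and the Rod-Zw10-Zwilch (RZZ) complex bring in Mad proteins, Mad2 is converted into the form that captures the APC/C activator Fizzy, and cyclin B and securin are kept from destruction. Once all kinetochores are attached the block is released, separase cleaves cohesin, and kinesins such as Klp3A and Pavarotti organize the midzone on which the cleavage furrow depends. Myb is a DNA-binding subunit of the fly Myb-MuvB/dREAM complex, which is known for regulating genes that act in G2 and M phase. The comparison asked how far the RNA of these 3 genes depends on Myb in a proliferating tissue.

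All 3 transcripts measured lower in Myb mutant discs than in control discs. The mean changes differed in size, but with 3 replicates a genotype the test of unequal change could not pass 0.05. Mps1 had a mean signal 27.8% lower, mad2 19.1% lower and Klp3A 10.6% lower. The study's methods set an adjusted p under 0.001 with a signal of at least 500 in at least 1 sample. Applied here to the means of biological replicates, 0 of the 3 passed that threshold, although all 3 reached the signal minimum in both genotypes. Counting the technical arrays as replicates, as in the methods' t-test on all 23 arrays, put all 3 under 0.001. Over the 9754 transcripts that reached the signal minimum, 1.06% passed it with a lower signal and 1.34% with a higher one (limma). At a looser adjusted p under 0.05, Mps1 passed and mad2 and Klp3A did not, against 5.09% of transcripts called lower and 5.84% called higher. Unadjusted, all 3 were under 0.05 (limma p = 0.000152 for Mps1, 0.00555 for mad2 and 0.027 for Klp3A), and the adjustment was made over all 16637 transcripts tested. Signals below are RMA intensities on the linear scale, the mean of a replicate is the antilog of its mean log2 signal, and a log2 change is taken as mutant minus control. Signals of different transcripts come from different probes, so their levels were not compared with each other.

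mad2 lies on chromosome arm 3L. Its mean signal was 1615, 1668 and 1847 in mutant replicates 1, 2 and 3, against 2147, 2152 and 2032 in control replicates 1, 2 and 3. Every mutant replicate was below every control replicate, but mutant replicate 3 was the highest of its genotype and control replicate 3 the lowest of its own, so the groups came within 0.14 of each other on the log2 scale. The 12 mutant arrays ran between signals of 1564 and 1945 and the 11 control arrays between 1994 and 2251, which leaves a gap of 0.04 (log2). On the log2 scale mad2 averaged 10.74 ± 0.10 in mutant discs and 11.04 ± 0.05 in control discs (SD, n = 3 biological replicates each). The log2 change was -0.31 (SE 0.07, 95% interval -0.48 to -0.13, limma adjusted p = 0.0602), and the interval corresponds to a signal 28.5% to 8.41% lower. The difference of same-numbered replicates was -0.41, -0.37 and -0.14. Without mutant replicate 3 the change was -0.36 and the adjusted p was 0.0254, and without control replicate 1 the change was -0.29 and the adjusted p 0.231. The looser threshold was thus passed or missed depending on 1 replicate.

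Mps1 lies on chromosome arm 3R, and fly work also knows the gene as altered disjunction (ald). Its mean signal was 3002, 2952 and 2860 in mutant replicates 1, 2 and 3, against 4041, 4181 and 3984 in control replicates 1, 2 and 3. The groups were well apart, with 0.41 (log2) between the highest mutant and the lowest control replicate. Single arrays ran from 2765 to 3130 in mutant discs and from 3791 to 4309 in control discs. Mps1 averaged 11.52 ± 0.04 in mutant discs and 11.99 ± 0.04 in control discs (log2, SD, n = 3 each), and it fell by 0.47 at the looser threshold (SE 0.06, 95% interval -0.61 to -0.33, limma adjusted p = 0.00485). The interval corresponds to a signal 34.5% to 20.4% lower. Same-numbered replicates differed by -0.43, -0.50 and -0.48, a narrower range than for mad2. The adjusted p stayed under 0.05 with each replicate left out in turn, between 0.0068 and 0.035.

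Klp3A lies on the X chromosome, of which male larvae carry a single copy in both genotypes. Its mean signal was 5479, 5370 and 5201 in mutant replicates 1, 2 and 3, against 5927, 5996 and 6017 in control replicates 1, 2 and 3. Mutant and control replicates were separate, and the nearest pair of replicates was 0.11 apart (log2). Arrays ran from 4956 to 5634 in mutant discs and from 5727 to 6129 in control discs, a gap of 0.02 (log2) between the closest arrays. Klp3A averaged 12.39 ± 0.04 in mutant discs and 12.55 ± 0.01 in control discs (log2, SD, n = 3 each). The change of -0.16 had an SE of 0.06 and a 95% interval of -0.30 to -0.03, a signal 18.6% to 1.73% lower, and did not pass the looser threshold (limma adjusted p = 0.161). Same-numbered replicates differed by -0.11, -0.16 and -0.21. The adjusted p ran from 0.166 to 0.421 with each replicate left out in turn. On the same 6 means the methods' t-test, which keeps each transcript's own variance, gave an adjusted p of 0.0434 for Klp3A.

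**Figure D1:**
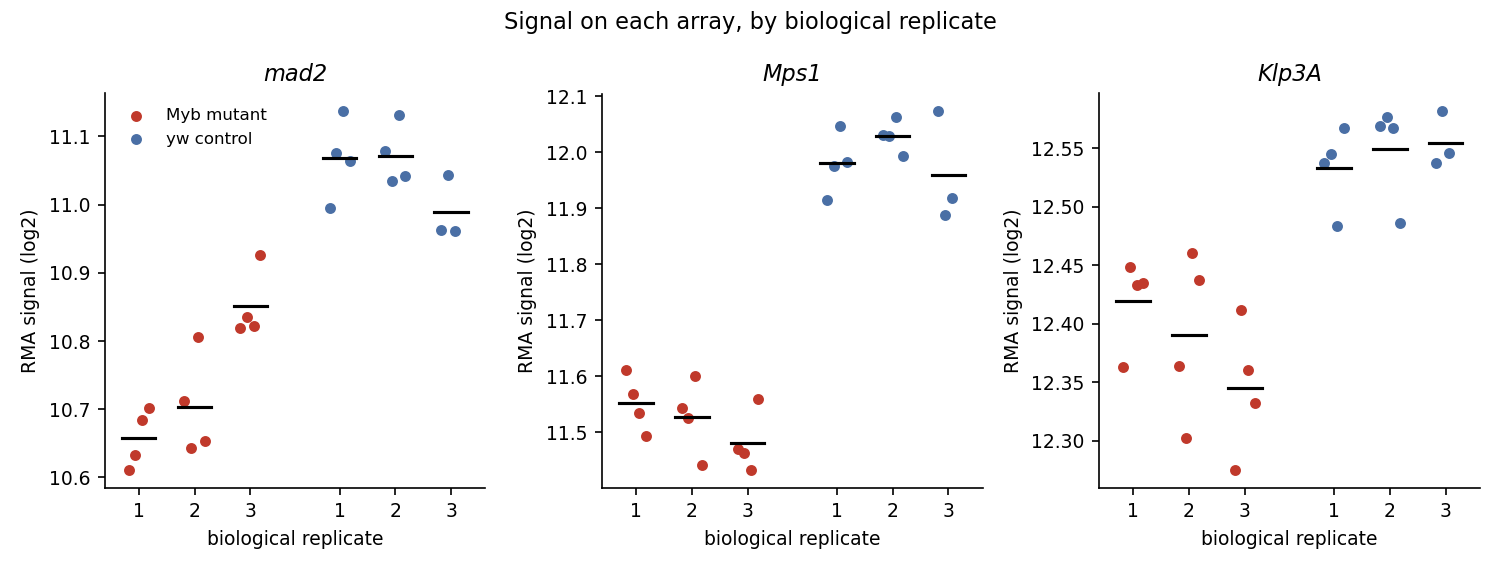
RMA signal (log2, y axis, a separate scale for each transcript) on every array for mad2, Mps1 and Klp3A, by biological replicate (x axis), with the Myb mutant in red at left and the yw control in blue at right. Points are single arrays and black lines the mean of a biological replicate. In each panel all 12 mutant arrays lie below all 11 control arrays, by 0.28 for Mps1, 0.04 for mad2 and 0.02 for Klp3A.

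The spread behind these changes differed among the 3 transcripts. The SD between biological replicates of a genotype, pooled over both genotypes, was 0.08 for mad2, 0.04 for Mps1 and 0.03 for Klp3A, against a median of 0.10 over the transcripts that reached the signal minimum. The SD between arrays of 1 replicate was 0.05 for mad2, 0.06 for Mps1 and 0.05 for Klp3A, near the median of 0.06. The first SD is between means of 3 to 4 arrays and the second between single arrays. For mad2 the SD between replicate means was the larger even so. For Mps1 and Klp3A the smaller SD between means does not show that biological replicates varied less than arrays. Of the 9754 transcripts, 37.6% had a smaller replicate SD than mad2, 7.31% than Mps1 and 3.42% than Klp3A. The empirical Bayes fit pulls each variance towards the common one, so the SE of Klp3A (0.06) was close to that of Mps1 (0.06) although its raw spread was lower.

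Mutant replicates did not share an order across the 3 transcripts. Mutant replicate 3 had the highest mad2 signal of its genotype and the lowest Mps1 and Klp3A signals. In control discs, replicate 3 had the lowest mad2 and Mps1 signals and the highest Klp3A signal. The RMS difference between 2 patterns, each transcript centred on its mean over the 6 replicates, was 0.112 between mad2 and Klp3A, 0.115 between Mps1 and mad2 and 0.156 between Mps1 and Klp3A.

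Whether the transcripts differed in the size of their change was tested on the difference of their log2 signals within each replicate, mutant against control, for all 3 pairs. The change of Mps1 minus that of Klp3A was -0.31 (SE 0.02), and the replicates of both genotypes did not overlap (exact permutation test, two-sided, p = 0.1, Benjamini-Hochberg adjusted p = 0.15). The offset between the 2 transcripts had an SD of 0.0027 among mutant replicates and 0.0374 among control replicates. Single arrays of 1 replicate had an SD of 0.06 for Mps1 and 0.05 for Klp3A. The 0.0027 over 3 means lies far below these, so it does not show that the 2 transcripts moved together. The SE of 0.02 rests on it in part and may be too small. The change of Mps1 minus that of mad2 was -0.16 (SE 0.08), again with no overlap (p = 0.1, adjusted 0.15, exact permutation test). The change of mad2 minus that of Klp3A was -0.14 (SE 0.09), with overlapping replicates (p = 0.2, adjusted 0.2, exact permutation test). With 3 replicates against 3, this test cannot go below p = 0.1, so none of the 3 pairs could pass 0.05. With the replicate block, the same-numbered replicates gave differences of -0.34 to -0.27 (SE 0.02) for Mps1 minus Klp3A, -0.34 to -0.02 (SE 0.09) for Mps1 minus mad2, and -0.30 to 0.07 (SE 0.11) for mad2 minus Klp3A. The sign was the same in 3 of 3 replicate numbers for both pairs with Mps1 and not for the remaining pair.

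Among the 9754 transcripts, 5.63% had a lower (more negative) change than Mps1, 8.57% than mad2 and 16.2% than Klp3A. Replicates of the 2 genotypes did not overlap, with the mutant lower, in 3 of the 3 transcripts and in 16.2% of all 9754. For single arrays this held in 3 of 3 and in 7.66%. The 3 were chosen with earlier results of these data known, so these shares are not independent evidence of a direction. The median change over the 9754 was 0.0034, and 49.1% of them were lower in mutant discs. Centring each array on its median moved the changes by -0.02.

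**Figure D2:**
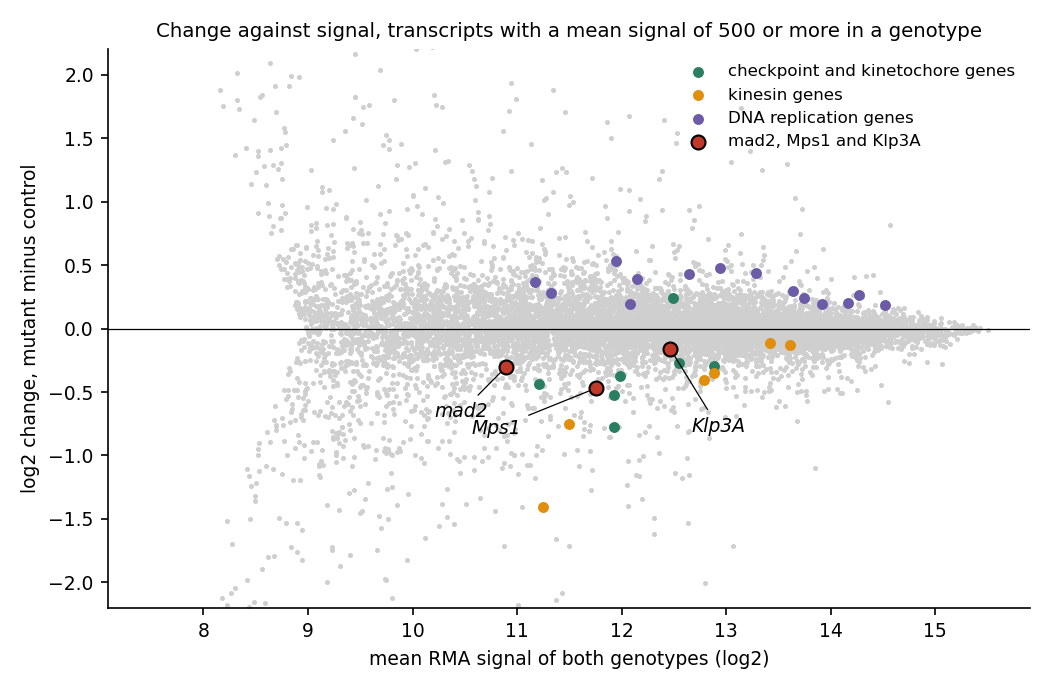
Log2 change, mutant minus control (y axis), against the mean log2 RMA signal of both genotypes (x axis). Grey points are the 9547 transcripts whose mean signal reached 500 in a genotype, of which 147 lie beyond the y axis, and coloured points are genes of the lists with a named transcript. Mps1 at -0.47 and mad2 at -0.31 lie below 0, and Klp3A at -0.16 lies nearer to 0. Of the 9754 transcripts that reached the minimum in a replicate, 5.63% had a lower change than Mps1 and 8.57% than mad2. The DNA replication genes lie above 0.

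Under 16 alternative settings the direction held in each for all 3 transcripts. Most of these could not have reversed it. Settings that alter only the variance or the threshold keep the same change. With no overlap of arrays, leaving out a replicate or weighting the arrays otherwise cannot change the sign. The 16 include the reported fit at the looser threshold. The change of Mps1 ran from -0.49 to -0.45 and its adjusted p was under 0.05 in 16 of 16. The change of mad2 ran from -0.36 to -0.27, with an adjusted p under 0.05 in 6 of 16, and that of Klp3A from -0.18 to -0.14, with 3 of 16. Median centring (adjusted p = 0.0456), a second quantile normalization (0.0354) and applying the signal minimum before the limma fit (0.0305) were enough to bring mad2 under 0.05. The 3 settings that brought Klp3A under 0.05 were the methods' t-test, on the 6 means (0.0434) or over 23 arrays (1.69e-06), and the random block for the biological replicate over all arrays (0.0463).

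**Figure D3:**
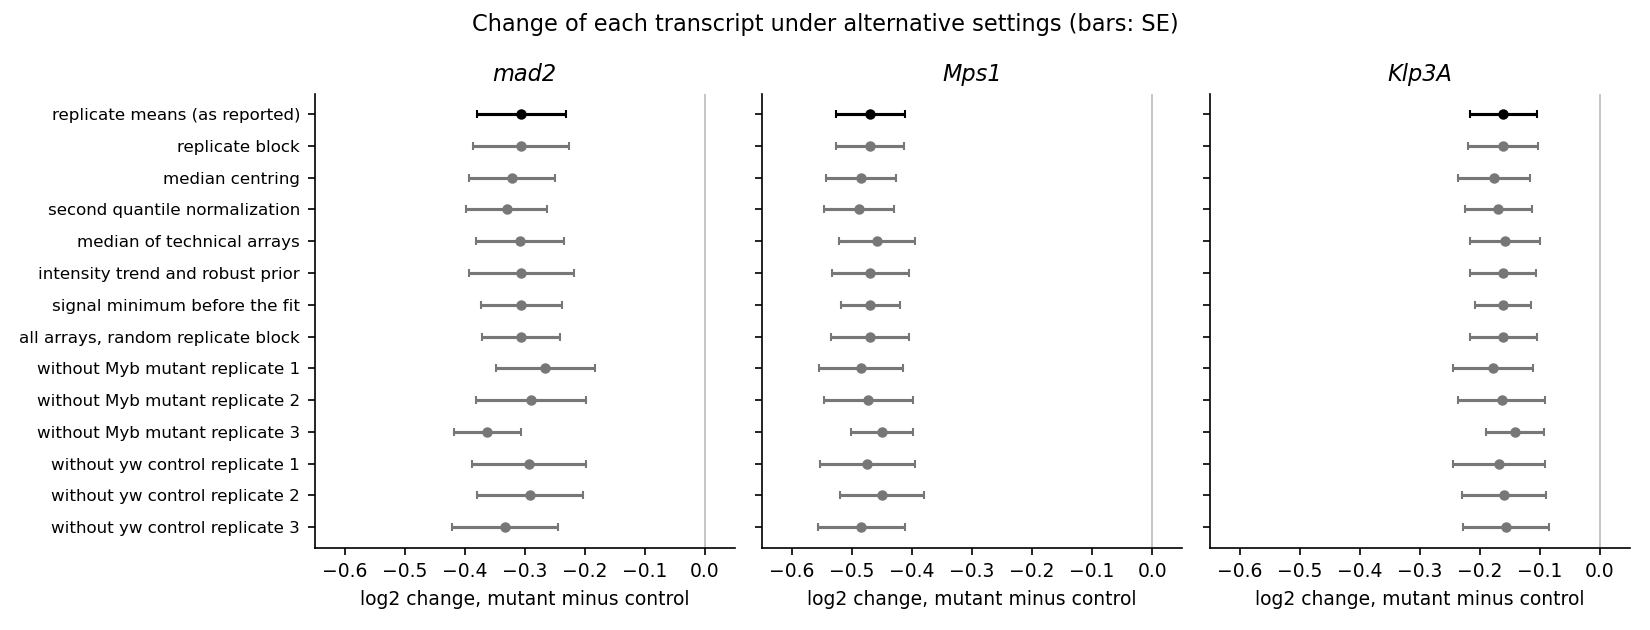
Log2 change, mutant minus control (x axis), of mad2, Mps1 and Klp3A under the reported setting (black) and 13 alternatives (grey, y axis), with bars for the SE. The points of mad2 are spread most when a mutant replicate is left out, from -0.27 without mutant replicate 1 to -0.36 without mutant replicate 3, and no point of any transcript reaches 0.

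Genes that work with Mad2 and Mps1 were taken from a list of 26 spindle checkpoint and kinetochore genes, of which 9 (34.6%) had a transcript with a known name. Names were available for the transcripts the study ranked first by p-value, so named genes lean towards changed ones, and none of the counts over lists below is independent evidence of a direction. Of the 1676 named transcripts that reached the signal minimum, 44.4% were lower in mutant discs, 6.15% were called lower and 7.82% higher at 0.001, 29.5% were called lower and 33.9% higher at 0.05, and 99.1% were under 0.05 unadjusted (limma). Of the 9, 8 were lower in mutant discs and 1 was higher, the median change was -0.37 (range -0.77 to 0.24), 0 passed the adjusted p of 0.001 and 6 were called lower at 0.05 (limma), beside 29.5% of named and 5.09% of all transcripts. Unadjusted, 9 of 9 were under 0.05, as were nearly all named transcripts, and the methods' t-test on the 6 means also called 0 at 0.001. With the replicate number as a block, 5 were called at 0.05. Without mutant replicate 1, mutant replicate 2, control replicate 1 or control replicate 3, the count was 3. No other checkpoint protein in the narrow sense (Mad1, Bub1, BubR1 or Bub3) had a named transcript.

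The RZZ complex and its partner Spindly, which recruit dynein and Mad proteins to kinetochores, were all named. At the looser threshold Zwilch fell by 0.77 (SE 0.07, mean signals 2979 in mutant and 5095 in control discs, limma adjusted p = 0.00153), and Spindly fell by 0.52 (SE 0.07, adjusted p = 0.00699). rod had a change of -0.29 (adjusted p = 0.0693). Zw10 measured higher in mutant discs, with 6279 against 5305 in control discs and a change of 0.24 (SE 0.06, adjusted p = 0.0798), which did not pass. Among structural kinetochore genes, Ndc80, which binds microtubules, fell by 0.43 (limma adjusted p = 0.0223). Spc105R, a kinetochore scaffold, fell by 0.27 (limma adjusted p = 0.0425, and 0.0855 with the replicate block). mei-S332, the fly shugoshin that guards centromeric cohesion, fell by 0.37 (adjusted p = 0.0247). Mps1 thus lay between Ndc80 and Spindly in size of change, and mad2 next to rod. Differences in size between these genes and mad2 or Mps1 were not tested.

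Klp3A was set beside the other kinesins. Of 26 listed genes, 7 (26.9%) had a named transcript, all 7 were lower in mutant discs, and the median change was -0.35 (range -1.41 to -0.11). At the adjusted p of 0.001, 1 of the 7 passed (0 with the replicate block), and 4 passed 0.05 (3 with the block). The count at 0.05 was 2 without mutant replicate 1, mutant replicate 2, control replicate 1 or control replicate 3. Of named transcripts, 44.4% were lower in mutant discs, 6.15% were called lower at 0.001 and 29.5% at 0.05. Of all 9754 transcripts, the shares were 49.1%, 1.06% and 5.09%. The gene past 0.001 was cmet, a CENP-E kinesin that moves chromosomes to the spindle equator, with mean signals of 1490 in mutant and 3955 in control discs, and it fell by 1.41 (SE 0.11, limma adjusted p = 0.000583). At 0.05, neb fell by 0.75 (adjusted p = 0.00207), pav, the centralspindlin motor, fell by 0.41 (adjusted p = 0.0133) and Klp61F, the kinesin-5 that keeps spindle poles apart, fell by 0.35 (adjusted p = 0.0218, and 0.0572 with the block). Klp3A had one of the smaller changes, between Klc (-0.13, adjusted p = 0.234) and Klp61F, while ncd, the minus-end motor, was at -0.11 (adjusted p = 0.278).

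Downstream of the checkpoint, 12 of 36 listed genes of anaphase and mitotic exit were named. Of these, 11 were lower in mutant discs, with a median over the 12 of -0.51. At the adjusted p of 0.001, 3 passed (0 with the replicate block), and 11 passed 0.05, all of them lower. The count at 0.05 was 8 with the block, 6 without mutant replicate 2, and 7 without control replicate 1 or control replicate 3. At these thresholds 6.15% and 29.5% of named transcripts were called lower, and 1.06% and 5.09% of all 9754. The 3 were Sse, the separase, which fell by 1.14 (SE 0.08, limma adjusted p = 0.000406), aurA, a kinase of spindle poles, which fell by 1.11 (SE 0.08, adjusted p = 0.000415), and cort, an APC/C activator known from female meiosis, which fell by 1.51 (SE 0.11, adjusted p = 0.000538) at mean signals of 177 in mutant and 505 in control discs. cort reached the signal minimum in control discs alone, so it could enter the counts only with a high control signal, and without it they are 2 and 10. fzy, the activator that Mad2 binds, fell by 0.44 at 0.05 (SE 0.09, adjusted p = 0.035, and 0.0721 with the block), and CycB, the cyclin whose destruction ends mitosis, fell by 0.40 (adjusted p = 0.00884). Also at 0.05, Cks30A fell by 0.57, the separase partner thr fell by 0.32 (adjusted p = 0.0338, and 0.0549 with the block) and the APC/C subunit shtd fell by 0.39 (adjusted p = 0.0317, and 0.0629 with the block). Of the genes of the central spindle and cytokinesis, asp fell by 0.57, sti fell by 0.46 and Sep5 fell by 0.65. shtd had a second transcript, at -0.48. The exception was APC7, which measured higher by 0.91 (adjusted p = 0.0198) at mean signals of 297 in mutant and 158 in control discs, below the signal minimum, and was not called.

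**Figure D4:**
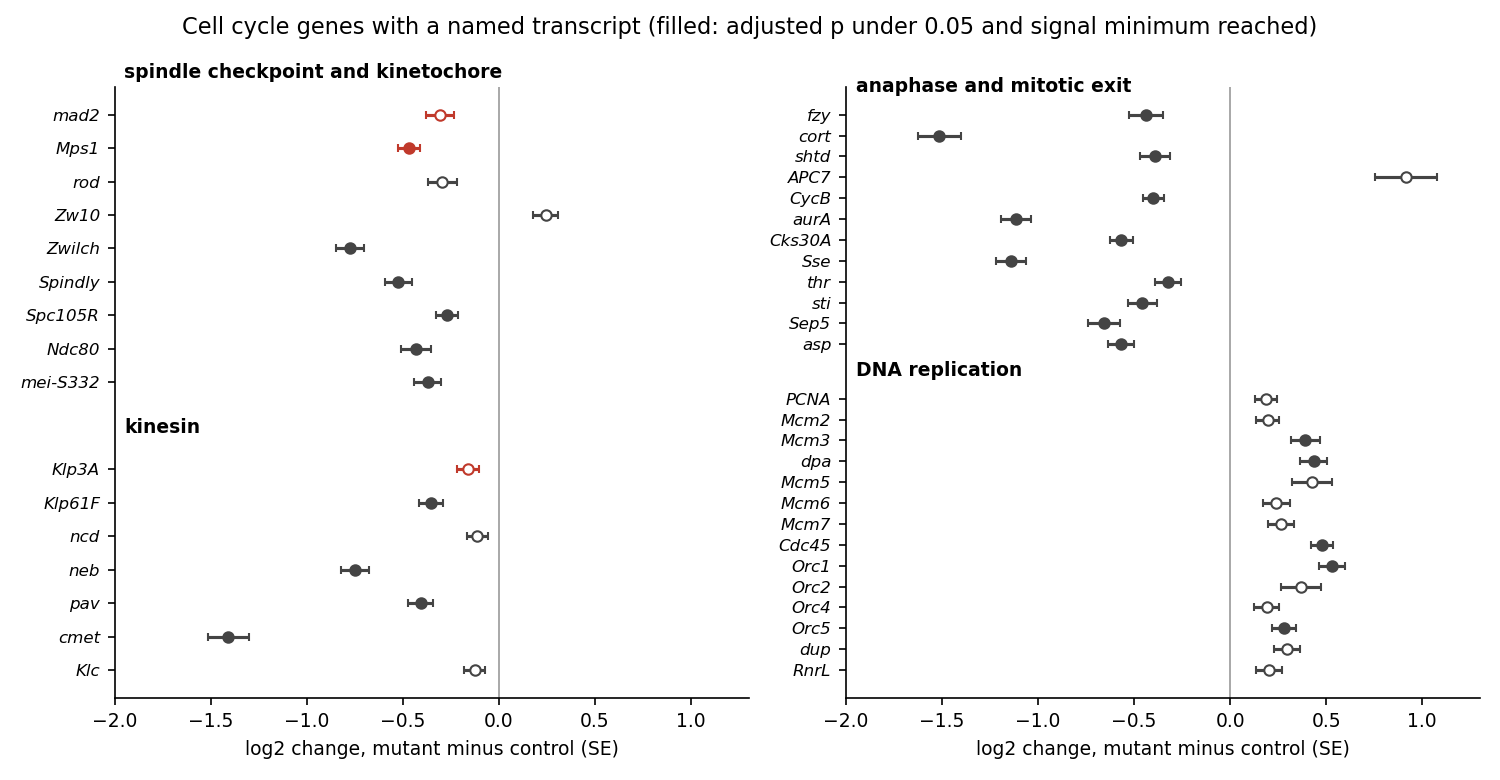
Log2 change, mutant minus control (x axis), with its SE, of every listed gene with a named transcript (y axis), grouped by list. Red marks mad2, Mps1 and Klp3A, and filled points passed an adjusted p of 0.05 and reached the signal minimum. Zw10 at 0.24 and APC7 at 0.91 are the points right of 0 among mitotic genes, and the 14 DNA replication genes all lie right of 0.

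Replication genes, which act in S phase, are a point of comparison from the same discs. Of 20 listed, 14 were named, and all 14 were higher in mutant discs (median 0.29). By limma, 0 passed 0.001, 5 rose at 0.05 (4 with the replicate block) and 14 were under 0.05 unadjusted. At 0.05, 33.9% of named and 5.84% of all transcripts were called higher. Orc1 rose by 0.53 (limma adjusted p = 0.0056), Cdc45 by 0.48 (adjusted p = 0.00454), dpa by 0.44 (adjusted p = 0.0143) and Mcm3 by 0.39 (adjusted p = 0.0284), and the remaining call, Orc5, had a change of 0.28 (adjusted p = 0.0479, and 0.0787 with the block). Of 13 dREAM genes 3 were named. Myb averaged 12.21 ± 0.05 in mutant and 13.92 ± 0.06 in control discs (log2, SD, n = 3 each) and fell by 1.71 (SE 0.06, limma adjusted p = 3.54e-05), E2f2 was at -0.37 (adjusted p = 0.0915) and mip130 rose by 0.25 at the looser threshold (adjusted p = 0.0457, and 0.0874 with the replicate block). Both genes that the deletion touches were therefore lower on the arrays labelled mutant, AlkB with a change of -3.78 (SE 0.10). Myb kept a mean signal of 4742 in mutant discs, above the signal minimum, against 15515 in control discs. AlkB was at 48.6 in mutant and 667 in control discs.

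Beside each transcript in the RefSeq gene order, a neighbour was named in 2 cases. alt, next to Mps1, had mean signals of 1872 in mutant and 3369 in control discs and fell by 0.85 at the looser threshold (SE 0.18, adjusted p = 0.0369, limma). Next to Klp3A stands Zw10, the RZZ gene above, whose change of 0.24 had the opposite sign to the -0.16 of Klp3A. The genes beside mad2 (kri and vn), and those on the other side of Mps1 (CG7523) and of Klp3A (egh), had no named transcript.

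For each transcript, the named transcripts with the most similar pattern over the 6 replicate means were found by the RMS difference among 1474 candidates, each centred on its own mean. For mad2 they were CG14710 (0.0214), tefu (0.0246), rod (0.0314), Klp61F (0.0414) and GNBP2 (0.0437), with changes of -0.30, -0.33, -0.29, -0.35 and -0.33. The list thus held 1 RZZ gene and 1 mitotic kinesin, and tefu encodes the fly ATM kinase. For Mps1 they were Gem4b (0.0291), Rel (0.0374), Reck (0.0392), rec (0.0401) and Col4a1 (0.041), with changes of -0.48, -0.42, -0.47, -0.51 and -0.51, and none was on a mitotic list. For Klp3A they were RhoGAP54D (0.0088), msn (0.0182), scyl (0.02), CG6144 (0.0204) and CG31710 (0.0211), with changes between -0.18 and -0.15, none of them on a mitotic list.

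**Figure D5:**
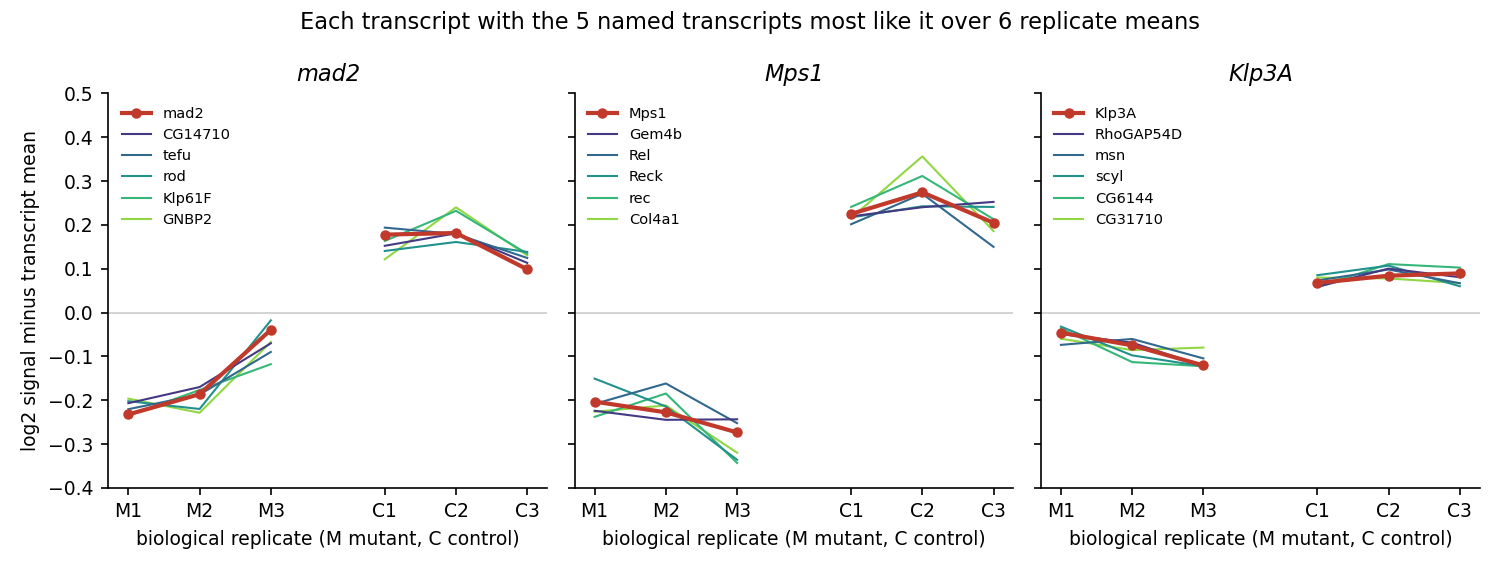
Log2 RMA signal minus the transcript's mean over 6 replicates (y axis) in each biological replicate (x axis, M for Myb mutant at left and C for yw control at right) for mad2, Mps1 and Klp3A (red) and the 5 named transcripts most like each. Lines join replicates of 1 genotype to follow a transcript and imply no order. The neighbours of mad2 were picked for likeness to it over the 6 replicates, and so share its high value in mutant replicate 3. In that replicate rod is the closest to mad2.

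Other signals in the discs moved with genotype. Of 10 hemocyte (blood cell) markers 9 were named, and all 9 were lower in mutant discs. At 0.001, 6 fell (3 with the replicate block), beside 6.15% of named and 1.06% of all transcripts called lower (limma). The largest changes were those of PPO2 (-6.46), PPO1 (-6.23) and Hml (-4.12). PPO2, PPO1, Hml and srp reached the signal minimum in control discs alone, so they could be called only with a high control signal. The summed signal of the 9 markers was 7369 to 8775 in mutant replicates and 48967 to 60625 in control replicates. Of 6 fat body markers, 5 were named and all 5 rose at 0.05 (3 with the replicate block), led by Lsp1gamma (3.46). That count stands beside 33.9% of named and 5.84% of all transcripts called higher at 0.05 (limma). The 5 fat body markers summed to 46575 to 92170 in mutant and 4317 to 11982 in control replicates. Muscle precursor markers (2 of 4 named, 0 called by limma at 0.05 and both under 0.05 unadjusted) summed to 29708 to 34004 in mutant and 36871 to 38305 in control replicates, and the tracheal marker btl (1 of 4 named) was at 205 to 268 in mutant and 559 to 580 in control replicates. RMA signals have no true 0, so no marker was listed at 0. Their part in the values of mad2, Mps1 and Klp3A was not tested, and in a whole disc fewer cells of a type and less RNA per cell cannot be told apart. None of the 16 wing disc markers had a named transcript, so the tissue label was not checked here.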

How the data were processed

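Values of 23 one-colour NimbleGen arrays were analysed. Per the study's methods the authors hybridized Cy3-labelled cDNA, corrected the background, normalized by quantiles and summarized probes with RMA before they deposited linear signal intensity for each transcript and array. Of 21051 transcripts, 4414 (21.0%) held the constant 14.158 on every array and were left out. Array medians were 996 to 1060, and 0 array pairs were identical. The number of biological replicates, 3 of each genotype, limits the precision. Slides and scan dates were not used here.

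Log2 signals were averaged over technical arrays within each biological replicate, grouped by sample title. The 6 means were compared with limma 3.58.1 (lmFit, eBayes) in R 4.3.3, two-sided, with Benjamini-Hochberg adjustment over 16637 transcripts, and the code was tested on simulated data. Where replicates came from is not given in the sources used here, so p-values measure the spread between these samples only. Alternatives were the replicate block, other thresholds and normalizations, the methods' t-test, a random block for the biological replicate over all arrays (statmod 1.5.0), and each replicate left out. In same-numbered mutant and control replicates, deviations from the group means correlated at 0.20, 0.18 and 0.28 over the 16637 transcripts. Over the 9754 that reached the signal minimum, the values were 0.20, 0.32 and 0.49. There mutant replicate 1 correlated with control replicate 2 at 0.21, and the remaining pairs ran from -0.44 to 0.03. The replicate number was therefore fitted as a block in an alternative. The labels give no source for such a pairing and the study's methods use no block. Values therefore come from the fit without the block, and the block's values stand beside the calls it changed.

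Names of 1999 transcripts came from a supplementary sheet of the study, held in part and ranked by p-value, and 98.1% matched RefSeq (Release 6, used for names, chromosome arms and gene order). The sheet's fold changes and p-values were not used. By rule the text names the 3 transcripts, list genes called at 0.05 (up to 4 per role), named gene neighbours and the 5 nearest patterns among named transcripts of mean signal 500 or more, with the brightest transcript of a gene. ncd, Klc, APC7, E2f2 and AlkB were added after their values were seen. Members and lists were chosen with earlier results of these data known.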

Additional observations from a re-analysis of the deposited data

How the results depend on the processing

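No result reversed under any alternative, but most alternatives could not reverse the direction of the 3 transcripts. The methods' t-test on all 23 arrays, which counts technical arrays as replicates, passed 0.001 for mad2 (-0.31), Mps1 (-0.47) and Klp3A (-0.16), with 9 calls among checkpoint and kinetochore genes (8 lower and Zw10 higher), 7 among kinesins and 11 among anaphase and exit genes, all lower. With the replicate as a random block, Mps1 passed 0.001 (-0.47) and the 3 counts were 7, 3 and 10. The looser threshold of 0.05 called Mps1 (-0.47) and gave 6, 4 and 11. The replicate block gave 0, 0 and 0 calls at 0.001, and the t-test on the 6 means likewise 0 for each. An intensity trend with a robust prior gave 1, 2 and 6, and the signal minimum before the fit gave 1, 2 and 4. Leaving out 1 replicate gave 0 calls among checkpoint genes, 0 to 1 among kinesins and 0 to 3 among exit genes at 0.001, against 0, 1 and 3 with all replicates. The change of mad2 ran from -0.36 to -0.27, that of Mps1 from -0.49 to -0.45 and that of Klp3A from -0.18 to -0.14. With the replicate block the adjusted p was 0.114 for mad2, 0.0229 for Mps1 and 0.185 for Klp3A, which changed no call of theirs. The cause of these shifts was not tested. Counts at 0.05 under every alternative were added after seeing the data. With 3 replicates a genotype, the bound of the 95% interval nearest to 0 was -0.13 for mad2 and -0.03 for Klp3A.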
